A study of Mus musculus with 6 samples.

Results

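The 10 genes described here encode enzymes that make cysteine from methionine (Cth, Cbs), build glutathione (Gclc, Gclm, Gss), recycle it (Gsr), or are classical targets of the transcription factor NRF2 (Nqo1, Hmox1, Txnrd1, Srxn1). They were chosen by gene symbol, with earlier results of these data known. All 10 were found among the 19877 genes of the deposited expression table. Messenger RNA captured on beads was sequenced from mouse cells labelled ADSCs, which usually stands for stem cells taken from adipose tissue. The control group (3 libraries) is labelled as scrambled and the other (3 libraries) as a knockdown of Ifit1, an interferon-induced gene whose protein binds foreign RNA. Both groups are labelled WT in genotype, and each of the 3 labelled batches holds 1 library of either group. The sources used here do not give the animals' strain and age, how the knockdown was made or whether the cells were clones or a mixed population. Nothing says that the libraries came from separate cultures, so p-values measure the spread between these libraries, which may be technical.

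Glutathione is the main small thiol of cells, and cysteine is usually the limiting building block for it. In transsulfuration, cystathionine beta-synthase (Cbs) joins homocysteine and serine to cystathionine, and cystathionine gamma-lyase (Cth) splits it to release cysteine. Glutamate-cysteine ligase, made of a catalytic subunit (Gclc) and a modifier subunit (Gclm), and glutathione synthetase (Gss) then build glutathione, and glutathione reductase (Gsr) restores it after oxidation. NRF2, encoded by Nfe2l2, is held at low levels by KEAP1 and, when released, binds antioxidant response elements together with small MAF proteins. ATF4, a transcription factor of amino acid shortage and other stresses, acts on part of the same chemistry, including Cth, the cystine importer Slc7a11 and the glutathione-degrading enzyme Chac1.

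Promoter windows from RefSeq (GRCm38.p6), each from 250 bases before to 50 after a gene start, were given for 6 of the 10 genes (Cbs, Gclm, Gss, Nqo1, Txnrd1, Srxn1). They were searched on both strands for the core of the antioxidant response element, TGACNNNGC, for its variant TGAGNNNGC, which can overlap an AP-1 site, and for TGATGNAA, the letters of the C/EBP-ATF composite element through which ATF4 acts. The first core was found in Gclm, Srxn1 and Txnrd1 (3 of 6 genes, and 14.0% of all 27025 genes with a window), and the variant in Srxn1 (19.8% of all genes). A gene counts where any of its windows matches. The ATF4 letters were in 0 of the 6 genes and in 4.51% of all genes. They were in 7 of the 14 genes with a window on a list of ATF4 and close targets, among them Slc7a11 and Chac1. That list was put together as ATF4 targets, with earlier results of these libraries known, so this count is no independent evidence. A match describes letters and is not a measured binding site. The stretches below lie upstream of a RefSeq start, which for Txnrd1 is an alternative start inside the gene, and read 5′ to 3′ in the gene's sense, with the matched letters in capitals. They are shown because they hold the letters searched for in genes whose levels follow, and those of Slc7a11 and Chac1 were chosen for the falls of these genes. A match on the opposite strand appears as its reverse complement. The match of Srxn1 to TGACNNNGC lies 28 bases after its start and is not printed, and Slc7a11 also holds 1 unprinted match to TGAGNNNGC.
Slc7a11, 2 matches to TGATGNAA, chr3:50443638-50443694, minus strand: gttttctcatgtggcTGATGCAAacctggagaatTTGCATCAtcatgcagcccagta
Chac1, 1 match to TGATGNAA, chr2:119351034-119351071, plus strand: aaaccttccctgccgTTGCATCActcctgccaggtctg
Gclm, 1 match to TGACNNNGC, chr3:122245408-122245446, plus strand: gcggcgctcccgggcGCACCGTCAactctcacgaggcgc
Txnrd1, 1 match to TGACNNNGC in 1 of its 3 windows, chr10:82859099-82859137, plus strand: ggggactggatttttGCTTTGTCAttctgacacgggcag
Srxn1, 2 matches to TGAGNNNGC, chr2:152105351-152105502, plus strand: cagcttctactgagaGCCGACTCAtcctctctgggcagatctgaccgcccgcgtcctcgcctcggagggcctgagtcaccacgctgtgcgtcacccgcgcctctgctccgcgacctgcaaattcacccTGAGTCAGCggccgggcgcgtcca

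Between 32213063 and 40569646 fragments per library were recovered from the steps of the FPKM values, which are fragments scaled to gene length and library size. Ifit1 checked the labels: it stood at 3.75 to 4.97 FPKM in scrambled and at 1.48 to 1.76 FPKM in knockdown libraries. The sum over 10 stromal markers was 542 to 547 FPKM in scrambled and 546 to 574 FPKM in knockdown libraries. Itgb1 and Cd44 made up most of it. In scrambled libraries Thy1, Vcam1, Ly6a, Pdgfrb and Alcam had means of 52.1, 41.3, 34.9, 24.1 and 9.71 FPKM. Eng and Pdgfra were low there, at 2.06 and 1.86 FPKM, and Nt5e, at 0.234 FPKM, was too low to be tested. Of the 9 tested stromal markers 5 fell, Ly6a (−0.82), Pdgfrb (−0.65), Eng (−0.58), Pdgfra (−0.57) and Thy1 (−0.42 on the log2 scale), and 3 rose, Alcam (0.53), Cd44 (0.50) and Itgb1 (0.09). Over all tested genes 31.1% fell and 19.8% rose. The summed level of 6 endothelial markers was at most 0.103 FPKM in any library. Of 10 macrophage and leukocyte markers 6 were in the table, and their sum was 4.53 to 5.61 FPKM in scrambled and 5.85 to 5.97 FPKM in knockdown libraries, nearly all of it Cd68 and Cd14, while Ptprc and Itgam reached at most 0.00524 and 0.00579 FPKM. Cd14 was higher in knockdown (log2 fold change 0.35). The sum of 6 epithelial and mesothelial markers was 19.3 to 27.5 FPKM in scrambled and 13.7 to 18.8 FPKM in knockdown libraries, nearly all of it Msln. Msln, the 1 tested of them, fell by 0.52, but its groups overlapped. Its log2 difference was −0.92 in batch 1, −0.66 in batch 2 and 0.01 in batch 3. The part of these markers and cells in the results was not tested. In bulk RNA, fewer cells of a kind and less RNA per cell cannot be told apart.

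Cth fell steeply, and 5 of the other genes rose by small amounts. The test covered 10311 genes that reached 1 FPKM in 3 or more of the 6 libraries, which kept 9 of the 10 and left out Cbs. Of the 9, Cth was lower, Gclc, Gclm, Gss, Gsr and Txnrd1 were higher, and Nqo1, Hmox1 and Srxn1 did not pass the threshold of 0.05 on the limma adjusted p. Of all tested genes 51.0% passed, 31.1% lower and 19.8% higher in knockdown. Higher genes thus made up 38.9% of those called, a share that was 27.6% after rescaling to TPM, 56.7% under median centring and 52.4% under quantile normalization. The median log2 fold change, knockdown over scrambled on the log2(FPKM + 0.5) scale, was 0.12 over the 9 genes and −0.05 over all tested genes. Only 1.09% of tested genes passed with a fall of at least 2-fold, and Cth was among them.

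**Figure D1:**
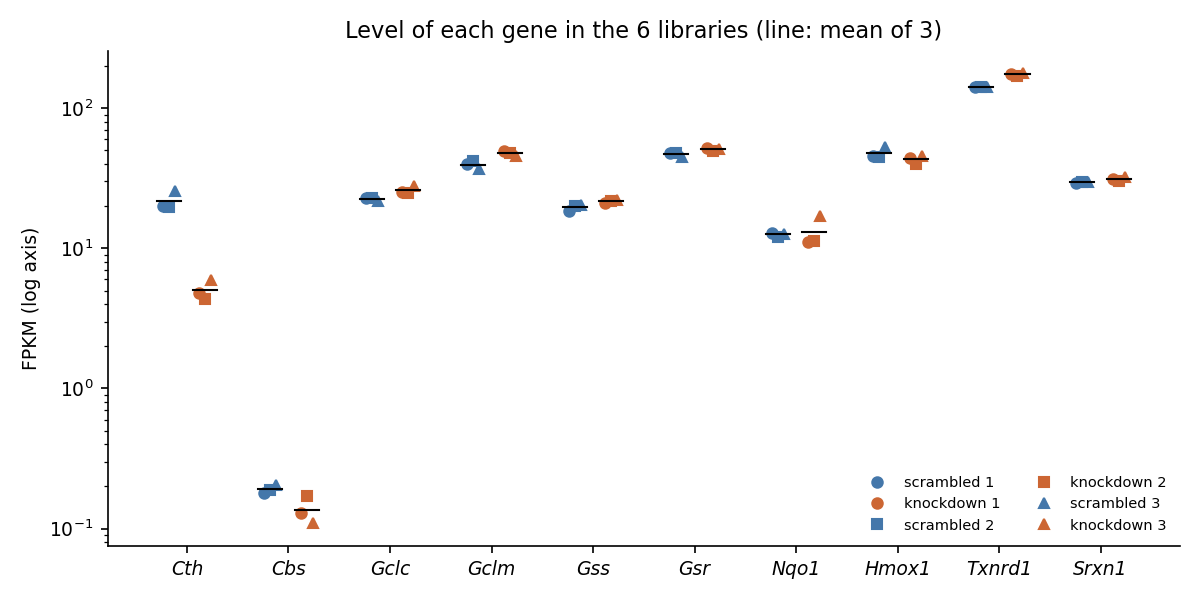
FPKM (log axis) of the 10 genes in each of 3 scrambled (blue) and 3 knockdown (orange) libraries, with symbols for batches 1, 2 and 3 and a line at each group's mean. Cth drops from 19.7 to 25.5 FPKM to 4.33 to 5.92 FPKM, Cbs stays near 0.2 FPKM or lower, and the other genes shift little.

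Of the pair of transsulfuration enzymes, Cth carried nearly all of the transcripts. Cth lies on chromosome 3, positions 157894248 to 157925077 of GRCm38, minus strand, and Cbs on chromosome 17, positions 31608894 to 31637238, minus strand. In libraries 1, 2 and 3, Cth stood at 20.2, 19.7 and 25.5 FPKM with the scrambled control and at 4.83, 4.33 and 5.92 FPKM with the knockdown. The groups were far apart, and in both of them the library of batch 3 was the highest. The mean fell from 21.8 ± 3.21 to 5.03 ± 0.815 FPKM (SD, n = 3 each), which made it 4.34 times higher in scrambled cells (log2 fold change −2.01 ± 0.12, limma adjusted p = 1.89e-05). The log2 difference of Cth was −1.96 in batch 1, −2.07 in batch 2 and −2.02 in batch 3. It rested on 1343 to 1763 fragments in a scrambled and 256 to 437 in a knockdown library, and it passed in all 16 alternative settings, with a log2 fold change between −2.13 and −1.90.

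Cbs was close to the limit of detection in both groups. Its level was 0.181, 0.188 and 0.204 FPKM in the scrambled and 0.130, 0.171 and 0.109 FPKM in the knockdown libraries, from 12 to 21 fragments a library. The groups did not overlap, with knockdown lower as for 37.3% of tested genes (61.1% in either direction), but the spread of the knockdown values was wide and the filter left the gene out of the main test. Without the filter the log2 fold change of Cbs was −0.12 ± 0.04 (limma adjusted p = 0.0950), a value that the added 0.5 FPKM shrinks for so low a gene. At these levels a difference could not be resolved.

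The 3 genes whose profile over the 6 libraries was most like that of Cth were H19, Mgarp and Acot2. Likeness was the root mean square difference of log2 levels after centring each gene on its own mean, and it was 0.11 for H19, 0.12 for Mgarp and 0.15 for Acot2. H19, an imprinted non-coding RNA, stood at 4.07 to 4.96 FPKM in scrambled and 0.521 to 0.927 FPKM in knockdown libraries. Acot2, a mitochondrial acyl-CoA thioesterase, stood at 5.19 to 6.86 and 1.24 to 1.40 FPKM. With 2 groups as far apart as these, any gene with a fall of this size scores as alike, so the measure describes the size and spread of the fall and nothing else.

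The enzymes that build glutathione moved opposite to Cth, and by much less. Gclc lies on chromosome 9 (77754535 to 77794485, plus strand), Gclm on chromosome 3 (122245557 to 122270732, plus strand) and Gss on chromosome 2 (155563181 to 155592810, minus strand). The catalytic subunit Gclc was at 22.9, 22.7 and 21.7 FPKM in scrambled and 25.4, 24.8 and 28.0 FPKM in knockdown cells. The modifier subunit Gclm, whose window with an antioxidant response element core is printed above, was at 40.0, 42.0 and 36.8 FPKM in scrambled and 49.7, 47.7 and 45.7 FPKM in knockdown libraries. For both subunits each knockdown library lay above each scrambled one, as for 23.8% of tested genes. Gclc rose by 16.2% (log2 fold change 0.21 ± 0.05, limma adjusted p = 0.00692) and Gclm by 20.5% (0.27 ± 0.05, limma adjusted p = 0.00278), and both passed in all 16 alternative settings.

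The ratio between both ligase subunits overlapped between the groups. The ratio of Cth to Gclc did not, which follows from the separate groups of both genes and their opposite directions. The ratio of Gclc to Gclm, in FPKM and so per length, was 0.572, 0.541 and 0.589 in scrambled and 0.510, 0.521 and 0.612 in knockdown libraries. The ratio of Cth to Gclc was 0.882, 0.869 and 1.18 in scrambled and 0.190, 0.174 and 0.212 in knockdown libraries. Scrambled cells thus held similar amounts of Cth and Gclc transcript, and knockdown cells several times more Gclc than Cth.

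Gss and Gsr shifted by about 10% and less. Glutathione synthetase, Gss, which adds glycine in the last step, was at 18.5, 20.01 and 20.5 FPKM in scrambled and 21.1, 21.9 and 22.02 FPKM in knockdown libraries. The groups of Gss were separate but adjoining (log2 fold change 0.14 ± 0.04, limma adjusted p = 0.0304). The call of Gss was lost without the filter (adjusted p = 0.0648), after rescaling to TPM (0.120), and without scrambled library 1 (0.108), scrambled library 2 (0.0519), knockdown library 2 (0.0844) or knockdown library 3 (0.0666), all limma. Glutathione reductase, Gsr (chromosome 8, 33652523 to 33698163, plus strand), which uses NADPH to regenerate glutathione, was at 47.6, 47.9 and 45.1 FPKM in scrambled and 52.0, 49.9 and 51.5 FPKM in knockdown libraries. Its rise of 9.10% (log2 fold change 0.12 ± 0.03, limma adjusted p = 0.0156) did not pass after rescaling to TPM (0.0713), without scrambled library 3 (0.0519) or without knockdown library 1 (0.0503).

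**Figure D2:**
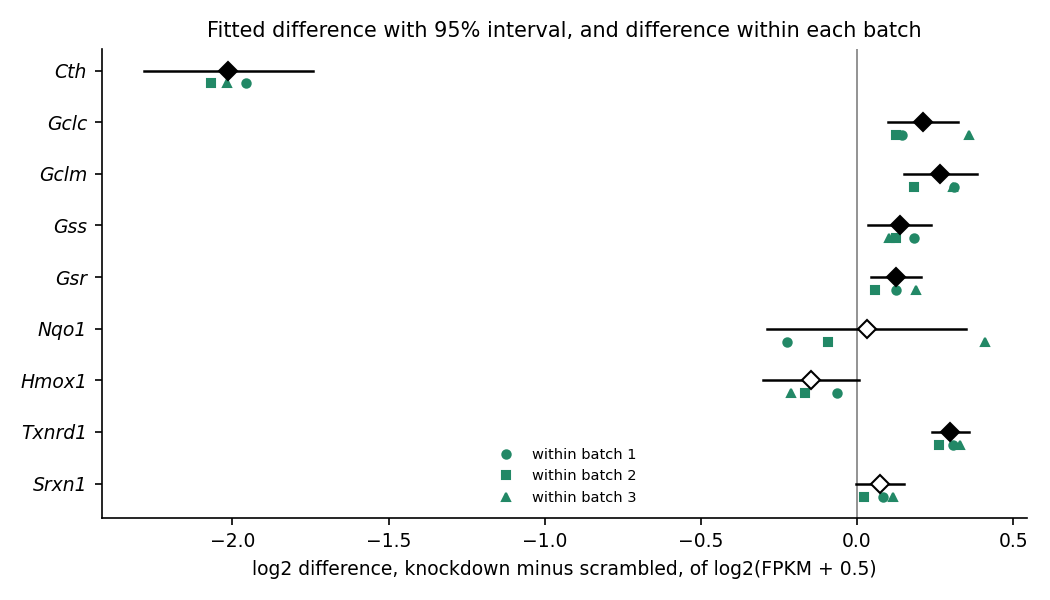
Fitted log2 difference, knockdown minus scrambled, of log2(FPKM + 0.5) for the 9 tested genes (diamonds, filled where limma adjusted p is under 0.05) with 95% intervals, and the difference within batches 1, 2 and 3 (green). Cth lies near −2, 5 genes lie between 0.12 and 0.30, and Nqo1 is the 1 gene whose batches fall on both sides of 0.

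Txnrd1 was the most abundant of the 10 genes and, on the log2 scale, the one with the largest rise, although the estimate of Gclm was larger under quantile normalization and without scrambled library 2 or knockdown library 3. It encodes thioredoxin reductase 1, a selenoprotein that passes electrons from NADPH to thioredoxin, and lies on chromosome 10, positions 82833951 to 82897712, plus strand. Its penultimate residue is selenocysteine, read from a TGA codon that is shown in capitals in the last coding bases of GENCODE transcript Txnrd1-201 (codon at positions 82896037 to 82896039 of GRCm38), because the active enzyme can be made only by reading through it.
Txnrd1 end of coding sequence: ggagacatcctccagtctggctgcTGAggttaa
The level of Txnrd1 was 142.5, 141.9 and 141.2 FPKM in the scrambled libraries and 176.5, 170.2 and 177.5 FPKM in knockdown libraries 1, 2 and 3. Scrambled values were almost identical, and each knockdown library lay well above them. The mean went from 141.9 ± 0.626 to 174.7 ± 3.94 FPKM (SD, n = 3 each), a rise of 23.2% (log2 fold change 0.30 ± 0.03, limma adjusted p = 6.76e-05), from 21339 to 28930 fragments a library. Txnrd1 passed in all 16 alternative settings, with a log2 fold change between 0.21 and 0.37. Relative to Gsr, the reductase of the glutathione arm, Txnrd1 stood at 2.99, 2.96 and 3.13 in scrambled and at 3.40, 3.41 and 3.45 in knockdown libraries, and these ratios did not overlap.

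Srxn1 and Hmox1 did not pass, and their point estimates lay on opposite sides of 0. Sulfiredoxin, Srxn1 (chromosome 2, 152105516 to 152111376, plus strand), repairs over-oxidized peroxiredoxins. Srxn1 was at 29.2, 29.8 and 29.6 FPKM in scrambled and 31.0, 30.3 and 32.1 FPKM in knockdown libraries, close together without overlap. Its log2 fold change was 0.07 ± 0.03 with a 95% interval from −0.00 to 0.15 (limma adjusted p = 0.0951), and it passed under median centring (0.14, adjusted p = 0.00714). Of the 6 genes with a window, Srxn1 had the most matches to the antioxidant response element letters.

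Heme oxygenase 1, Hmox1 (chromosome 8, 75093621 to 75100589, plus strand), breaks heme down to biliverdin, iron and carbon monoxide. Its level was 45.9, 44.8 and 52.8 FPKM in scrambled and 43.9, 39.9 and 45.6 FPKM in knockdown libraries. The groups overlapped, since knockdown library 3 lay above scrambled library 2. Within batches 1, 2 and 3 the knockdown library was the lower one each time, by 0.06, 0.17 and 0.21 on the log2 scale. The log2 fold change of Hmox1 was −0.15 ± 0.07 (limma adjusted p = 0.1003), and it passed as lower with batch as a block (adjusted p = 0.0155) and after rescaling to TPM (−0.19, adjusted p = 0.0400).

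The result for Nqo1 rested on 1 library. Nqo1 (chromosome 8, 107388225 to 107403206, minus strand) encodes a quinone reductase and is widely used as a readout of NRF2. It was at 13.0, 12.0 and 12.7 FPKM in the scrambled libraries and at 11.0, 11.2 and 17.1 FPKM in knockdown libraries 1, 2 and 3. Knockdown libraries 1 and 2 lay below all scrambled libraries and knockdown library 3 above them. The log2 fold change of Nqo1 was 0.03 ± 0.14 (limma adjusted p = 0.866), and without knockdown library 3 it turned to −0.17 ± 0.05 (adjusted p = 0.0198). Its level in knockdown library 3 was 1.52 times that of the higher of the other knockdown libraries, a ratio that ranked 33 among 10311 tested genes.

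Upstream of these genes, the transcript of NRF2 itself did not pass, and those of its inhibitors Keap1 and Bach1 fell. Nfe2l2 was at 27.8, 26.6 and 27.0 FPKM in scrambled and 22.5, 23.4 and 27.0 FPKM in knockdown libraries (log2 fold change −0.16 ± 0.06, limma adjusted p = 0.0577). Its level in knockdown library 3, where Nqo1 was high, lay between the scrambled values. Keap1, the adaptor that sends NRF2 to degradation, fell (−0.22), as did the repressor Bach1 (−0.24), the autophagy receptor Sqstm1 (−0.40) and the NRF2 relative Nfe2l1 (−0.43), while the small MAF partners Mafk (0.57) and Maff (0.46) and the ligase subunit Rbx1 (0.15) rose. The third small MAF, Mafg, stood at 0.01 (limma adjusted p = 0.839). Of 14 tested genes on the list of NRF2, its inhibitors and partners, 4 rose, 6 fell and 4 did not pass (28.6% and 42.9%, beside 19.8% and 31.1% of all tested genes, with a median log2 fold change of −0.15). Nfe2l2, Keap1, Bach1, Mafk, Maff and Mafg were named after their values were seen.

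On a list of other NRF2 targets, more genes fell than rose. The list holds none of the 10. Txn1 (log2 fold change 0.29) and Slc7a11 (−1.61), placed on other lists, were not counted in it. Of its 25 tested genes 13 fell (52.0%, beside 31.1% of all tested genes), 4 rose (16.0%, beside 19.8%) and 8 did not pass, with a median of −0.16. The ferritin light chain Ftl1, the most abundant, rose from 2018 ± 43.9 to 2175 ± 35.4 FPKM (log2 fold change 0.11), and the heavy chain Fth1 stood at 0.03 (limma adjusted p = 0.573). The pentose phosphate enzyme Tkt fell by 0.23 on the log2 scale, and the iron exporter Slc40a1 fell by 1.07 ± 0.14, with 2.09 ± 0.494 FPKM in scrambled and 0.726 ± 0.129 FPKM in knockdown cells (limma adjusted p = 0.000412). The count of rises went to 1 after rescaling to TPM and to 2 under quantile normalization. The letters TGACNNNGC were in 9 of the 27 genes of this list with a window (33.3%, beside 14.0% of all genes with a window). The genes were listed as NRF2 targets, so this share is no independent evidence.

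**Figure D3:**
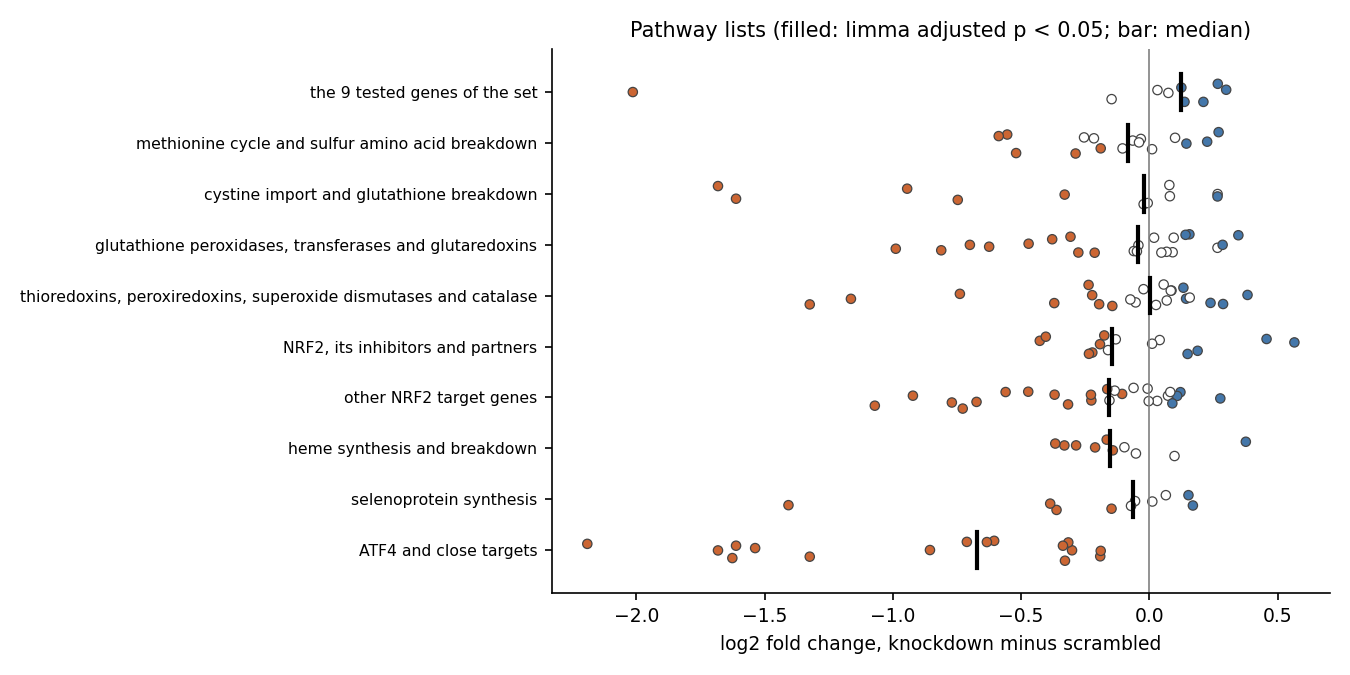
Log2 fold change, knockdown minus scrambled, of each tested gene of the 10-gene set (top) and of the 9 pathway lists, filled where limma adjusted p is under 0.05 (blue higher, orange lower), with a bar at the median. In the set itself Cth stands alone on the left, while the list of ATF4 and close targets lies wholly below 0 (median −0.67).

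A cystine importer and a glutathione-degrading enzyme, Slc7a11 and Chac1, fell steeply, as Cth did. Slc7a11, the exchanger that brings in cystine, was at 3.88, 4.29 and 4.92 FPKM in scrambled and 0.974, 1.04 and 1.26 FPKM in knockdown libraries. Slc7a11 was thus 4.00 times higher in scrambled cells (log2 fold change −1.61 ± 0.10, limma adjusted p = 2.1e-05). Its partner chain Slc3a2, named after its values were seen, fell by 0.33, with 29.7 to 33.0 FPKM in scrambled and 23.9 to 25.1 FPKM in knockdown libraries. Chac1, which cleaves glutathione inside the cell, was at 23.9, 24.5 and 28.0 FPKM in scrambled and 6.34, 8.49 and 8.09 FPKM in knockdown libraries (−1.68 ± 0.10, limma adjusted p = 1.95e-05). Both promoters printed above with the ATF4 letters were chosen for these falls. Got1 (−0.04, limma adjusted p = 0.387), Sephs1 (0.06, adjusted p = 0.142) and Sqor (−0.25, adjusted p = 0.0660), from other lists, hold the letters too and did not pass, while Ptgr1, also with them, fell by 0.37. These 4 genes were named after their values were seen. Of 11 tested genes of this list 5 fell, 1 rose (the aminopeptidase Lap3, 0.27) and 5 did not pass, among them the glutathione exporter Abcc1 (0.08) and the mitochondrial importer Slc25a39 (−0.01), and the list's median was −0.02. Falls thus made up 45.5% and rises 9.09% of it, beside 31.1% and 19.8% of all tested genes. The 1 rise became 4 under median centring and the 5 falls became 2 with a mean FPKM of at least 5.

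All 16 genes of the list of ATF4 and close targets fell (beside 31.1% of all tested genes), 6 of them at least 2-fold (beside 1.09%). That list was chosen with earlier results of these libraries known, so its direction is no independent evidence. Atf4 itself, at 327 ± 7.78 FPKM in scrambled and 265 ± 5.55 FPKM in knockdown cells, fell by 0.30 on the log2 scale, and Aldh1l2 (−1.54), Sesn2 (−1.32) and Vldlr (−1.63) fell further. Cth, with −2.01, lay beyond all of these except Trib3 (−2.19), and Phgdh and Psat1, enzymes that make the serine used by Cbs, fell by 0.19 each on the log2 scale.

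In the methionine cycle, which feeds transsulfuration, Mat2a and Ahcy rose slightly. Mat2a, which makes S-adenosylmethionine, had 87.2 ± 0.991 FPKM in scrambled and 105.3 ± 0.855 FPKM in knockdown cells (log2 fold change 0.27 ± 0.03, limma adjusted p = 8.93e-05), and Ahcy, which releases homocysteine, had 92.9 ± 2.02 and 102.7 ± 0.545 FPKM (0.14). Ahcyl1, a relative of Ahcy that regulates calcium release, stood at −0.03 (limma adjusted p = 0.487). Mpst, a sulfurtransferase that acts on a product of cysteine, fell by 0.55, and was named after its values were seen. Of 16 tested genes of the methionine cycle and sulfur amino acid breakdown 3 rose, 5 fell and 8 did not pass (median −0.08). These shares, 18.75% and 31.25%, lie close to the 19.8% and 31.1% of all tested genes, and the count of falls ranged from 3 to 8 over the alternatives, with 3 without scrambled library 1.

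Among the enzymes that spend glutathione, the peroxidase Gpx1 and the transferase Gsto1 rose, and the transferases Gstm1 and Gstm2 fell. Gsto1, named after its values were seen, rose by 0.29 on the log2 scale (limma adjusted p = 0.000431). Of 22 tested glutathione peroxidases, transferases and glutaredoxins 4 rose (18.2%, beside 19.8% of all tested genes) and 9 fell (40.9%, beside 31.1%). The other 9 did not pass, and the list's median was −0.05. There were 8 rises under median centring and 5 falls with a mean FPKM of at least 5. Gpx1 had 287 ± 2.28 FPKM in scrambled and 320 ± 8.16 FPKM in knockdown cells (log2 fold change 0.16 ± 0.03, limma adjusted p = 0.00145), while Gpx4, the peroxidase of membrane lipids, stood at −0.04 (adjusted p = 0.240) and Gstp1 at 0.09 (adjusted p = 0.114). Gstm2, named after its values were seen, was at 44.1, 43.8 and 48.5 FPKM in scrambled and 26.1, 25.002 and 38.4 FPKM in knockdown libraries (log2 fold change −0.62 ± 0.14, limma adjusted p = 0.00540). Like Nqo1 it was highest among the knockdown libraries in library 3, by 1.47 times, and so was Gstm1, also named after its values were seen (log2 fold change −0.28, limma adjusted p = 0.0286), by 1.26 times. Reads of the Gstm genes may be shared between near-identical copies. A level in knockdown library 3 at least 1.25 times that of both other knockdown libraries was seen in 3 of these 22 genes, in 1 of the 9 tested genes of the set (Nqo1) and in 2.44% of all tested genes.

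In the thioredoxin arm, Txn1 rose along with its reductase Txnrd1, and the regulators Txnip and Sesn2 fell. Txn1, the cytosolic substrate of Txnrd1, was at 364, 351 and 351 FPKM in scrambled and 429, 438 and 434 FPKM in knockdown libraries. Its rise (log2 fold change 0.29 ± 0.03, limma adjusted p = 6.68e-05) had about the size of that of its reductase. Txnip, an inhibitor of thioredoxin that responds to glucose, fell by 1.16 ± 0.08, with 8.66 ± 1.05 FPKM in scrambled and 3.58 ± 0.220 FPKM in knockdown cells (limma adjusted p = 3.17e-05), and Sesn2, a stress-induced regulator also on the ATF4 list, fell from 16.2 ± 1.87 to 6.18 ± 0.906 FPKM. Prdx1 (0.08, adjusted p = 0.0555) and Sod1 (0.03, adjusted p = 0.443) did not pass. Of 22 tested thioredoxins, peroxiredoxins, superoxide dismutases and catalase 5 rose (22.7%, beside 19.8% of all tested genes) and 8 fell (36.4%, beside 31.1%). The other 9 did not pass, the list's median was 0.00, and 9 genes rose under median centring.

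**Figure D4:**
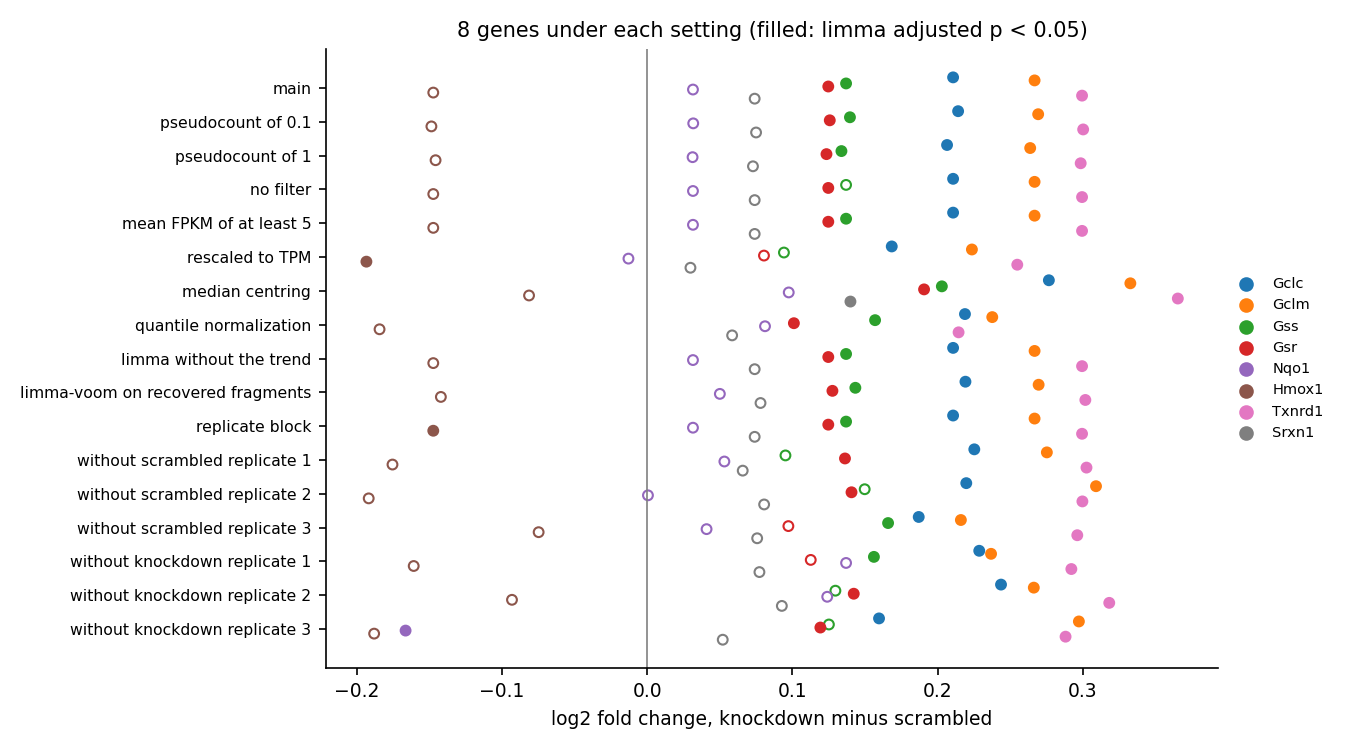
Log2 fold change, knockdown minus scrambled, of 8 tested genes (all but Cth) under the main setting and 16 alternatives, filled where limma adjusted p is under 0.05. Gclc, Gclm and Txnrd1 stay filled and to the right of 0 in each row, Gss and Gsr lose their fill in 6 and 3 rows, and Nqo1 lies left of 0 without knockdown replicate 3 and after rescaling to TPM.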

How the data were processed

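The authors deposited 1 table of FPKM values for 19877 genes in 6 libraries, per the labels. The submitters' processing notes name GRCm38, mm10 and GRCm39 without a role. The aligner, counter and strand setting were not given in the sources used here. Libraries were grouped by their titles. Genes that reached 1 FPKM in 3 or more of 6 libraries were changed to log2(FPKM + 0.5) and compared with limma 3.58.1 in R 4.3.3 (trended moderated variance, two-sided, Benjamini-Hochberg over 10311 genes, threshold 0.05). Errors are standard errors for log2 fold changes and SDs (n = 3) for FPKM. Fold changes on this scale understate those of low genes.

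Fragments were recovered from the FPKM steps (19877 genes within 0.002 of whole numbers, which is no check for genes above 0 in few libraries). They served depth and a limma-voom alternative, and low counts that share a factor are understated. The procedure was tested on simulated data. The 10 genes and the lists were chosen with earlier results of these data known. Genes named outside the set are the 3 most abundant tested genes of each list and those changed at least 2-fold, unless stated. A gene that this rule names is not reported here. Positions are from GENCODE M21 on GRCm38. The labels give 1 library of each group per batch, so the numbers pair the libraries. Deviations from the group means correlated by 0.09, 0.01 and 0.19 over genes in batches 1, 2 and 3. Between a scrambled and a knockdown library of different batches the correlation ranged from −0.17 to 0.11. Only the value of batch 3 lay above that range. Alternatives were 2 other pseudocounts, 2 other filters, 3 scalings, limma without the trend, limma-voom, the batch block and each library left out.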

Additional observations from a re-analysis of the deposited data

How the results depend on the processing

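Of 144 values (9 tested genes under 16 alternatives), 130 kept their direction and side of the threshold, 9 lost a call (6 of Gss and 3 of Gsr), 3 gained one and 2 turned, both of Nqo1, which was −0.013 under TPM scaling and between −0.17 (without knockdown library 3) and 0.14 (without knockdown library 1) with a replicate left out. Of the 10 genes 5 rose and 1 fell in the main fit. After rescaling to TPM 3 rose and 2 fell, the second fall being Hmox1. With batch as a block 2 fell, again with Hmox1, and the block changed no other call of the 9. Leaving out 1 library gave 4 rises each time and 1 to 2 falls, the second fall being Nqo1 without knockdown library 3. Of 143 tested genes on the pathway lists 69 fell (48.3%, beside 31.1% of all tested genes) and 24 rose (16.8%, beside 19.8%). With 1 library left out 57 to 70 fell and 22 to 26 rose, and 39 rose under median centring. Without a library, spread comes from 5 libraries. Of 288 list counts under alternatives 24 moved by over 1.5 times, 11 up and 13 down. Rescaling to TPM ended the calls of Gss and Gsr, and median centring added that of Srxn1. Why these values moved was not tested. Counting error limits Cbs, with at most 21 fragments a library.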

Other observations

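The list of selenoprotein synthesis also holds Selenop, Selenos and Selenok, which are selenoproteins and not factors of that synthesis. Its genes were called higher and lower at shares near those of all tested genes. Of 10 tested genes 2 rose (20%, beside 19.8% of all), 4 fell (40%, beside 31.1%) and 4 did not pass (median log2 fold change −0.06), and 1 rose when replicate 1 or 3 of the scrambled group or replicate 2 of the knockdown group was left out. Sephs2, which makes selenophosphate, rose from 18.2 ± 0.651 to 20.2 ± 0.314 FPKM (0.15, limma adjusted p = 0.0101), while the selenium carrier Selenop fell from 3.75 ± 0.684 to 1.10 ± 0.278 FPKM (−1.41 ± 0.15, limma adjusted p = 0.000164). Selenok, a selenoprotein of the endoplasmic reticulum, fell by 0.15 on the log2 scale, and Selenos stood at 0.01 (limma adjusted p = 0.875).

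Of 10 tested genes of heme synthesis and breakdown 6 fell (60%, beside 31.1% of all tested genes), 1 rose (10%, beside 19.8%) and 3 did not pass (median −0.15). The constitutive heme oxygenase Hmox2 fell from 22.5 ± 1.26 to 19.4 ± 0.513 FPKM (−0.21, limma adjusted p = 0.00519), a decrease that passed where the one of Hmox1 did not, and the difference between both was not tested. Lrp1, a receptor for hemopexin-bound heme and many other ligands, fell by 0.37 on the log2 scale.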
